A study of Mus musculus with 24 samples.

Results

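The genes examined here are those of MHC class I and its peptide loading pathway, chosen by name as H2-D1, H2-K1, H2-Q6, B2m, Tap1, Tap2, Tapbp, Psmb8, Psmb9 and Psmb10. Of these 10 genes, 7 had a row among the 14074 genes of the normalized count table for the prefrontal cortex (PFC), and all 7 were tested. Tap1, Psmb8 and Psmb9 had no row and are not analysed here. The table holds 24 libraries, each from 1 adult male C57BL/6 mouse, in 6 groups of 4. Control animals were not defeated and were kept singly for 5 days beforehand, whereas the PS (passive coping, dep1 in the labels) and AS (active coping, dep2) animals went through 30 days of social defeat by aggressive CD1 males. The split into PS and AS rests on a clustering of each animal's behaviour during non-aggressive contact. Within each phenotype, 4 mice received saline and 4 received the synthetic glucocorticoid dexamethasone (DEX, 2 mg/kg), and the tissue was taken 6 h later. All 6 groups share the strain, the sex and an injection, and the DEX dose is a pharmacological one. Recovered depth ran from 21121869 to 59439645 reads per library with a median of 24420130. It differed by phenotype. Group medians were 22869703 (saline) and 23492572 (DEX) in control, 24008146 and 24187702 in PS, and 34242532 and 37876626 in AS. The 8 of 8 pyramidal neuron markers listed for this tissue were above 0 in every library, with summed normalized counts of 160859 to 229484.

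MHC class I molecules show short peptides from inside the cell to cytotoxic T cells. The proteasome cuts proteins into peptides, the TAP transporter carries them into the endoplasmic reticulum, and tapasin holds an empty class I molecule at the transporter until a heavy chain and beta-2-microglobulin close around a peptide. Interferons raise the whole pathway through factors such as IRF1 and NLRC5, and the immunoproteasome subunits then take the place of their constitutive counterparts. In the healthy brain, class I transcripts are found above all in endothelial cells and microglia, while glucocorticoids are known to dampen many interferon-driven genes.

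The stretches that carry class I control letters are shown for the 3 heavy chain genes, which share most of their letters, and for B2m. All 3 heavy chain genes fell after DEX in AS animals, which was known when they were picked. Whether the letters bear on that fall was not tested. RefSeq promoter windows (GRCm38.p6) existed for 9 of the 10 genes, and for 6 of the 7 measured ones, without Tap2. Each window was read over the 250 bases before the start on both strands for GAAANNGAA (interferon-stimulated response element core), AAGTGAAA (class I interferon response core), GGGANNNCC (kappa-B) and ACANNNTGT (glucocorticoid response element core), as well as for the CRE core TGACG and the CCAAT box. Capitals mark matches in either direction, and the heavy chain stretches run 5′ to 3′ on the gene's strand, from chr17:34000354-34000473 (minus strand) for H2-K1, chr17:35262908-35262932 (plus strand) for H2-D1 and chr17:35424662-35424780 (plus strand) for H2-Q6. B2m is shown from chr2:122147543-122147643 (plus strand).
H2-K1: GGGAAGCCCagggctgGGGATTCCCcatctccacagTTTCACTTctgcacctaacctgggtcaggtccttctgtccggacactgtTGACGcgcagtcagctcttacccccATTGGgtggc
H2-D1: GGGAAGCCCagggctgGGGATTCCC
H2-Q6: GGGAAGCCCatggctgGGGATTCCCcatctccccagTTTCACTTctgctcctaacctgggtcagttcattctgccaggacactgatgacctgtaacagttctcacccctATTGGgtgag
B2m: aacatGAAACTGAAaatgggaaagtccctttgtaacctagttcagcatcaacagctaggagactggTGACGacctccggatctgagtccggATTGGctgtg

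H2-K1, H2-D1 and H2-Q6 each held 2 kappa-B matches, followed by TTTCACTT, the reverse complement of AAGTGAAA, and by ATTGG. Only the first 25 bases of the H2-D1 stretch are printed, since an exon of the GENCODE M21 annotation overlaps that region. The printed 25 bases overlap an annotated exon as well. They lie before the RefSeq start but inside the GENCODE gene, which begins at 35262730. Over the 120 aligned columns, H2-K1 and H2-D1 had 90.8% identical bases, and H2-Q6 had 85% identical bases against either of them. TGACG was present in H2-K1 and H2-D1 but not in H2-Q6. B2m held GAAACTGAA, TGACG and ATTGG and no kappa-B match, Tapbp held 2 ATTGG matches alone, and Psmb10 held none of the 6 motifs. None of the 6 measured genes with a window held ACANNNTGT. Across all 32851 RefSeq promoter windows, whether or not the gene has a row in the count table, the share with a match was 7.13% for GAAANNGAA, 1.361% for AAGTGAAA, 15.8% for GGGANNNCC, 17.8% for TGACG, 33.8% for CCAAT and 5.84% for ACANNNTGT. Among the 12960 windows of genes with a row, the shares were 5.77%, 0.949%, 20.1%, 26.2%, 34.7% and 3.63%, in the same order. These are letter matches and not binding sites, and a missing match says only that the letters were not in the window.

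By level, B2m was the most abundant member. Per kilobase of exon, its mean normalized count over the 24 libraries was 2470.0, against 462 for Psmb10, 389 for H2-D1, 221 for Tapbp, 209 for H2-K1, 65.1 for Tap2 and 21.4 for H2-Q6. H2-Q6 was the thinnest row, with 9 to 156 recovered reads per library against at least 140 for each of the other 6 members. H2-D1, H2-K1 and H2-Q6 belong to a family of closely related heavy chain genes, so the split of reads within that family, for H2-Q6 in particular, is uncertain. How alike their exons are was not measured. All 3 lie on chromosome 17 in GRCm38, at 35262730 to 35267499 (plus strand), 33996017 to 34000347 (minus strand) and 35424850 to 35430055 (plus strand), respectively. Tap2 (34203527 to 34216321) and Tapbp (33915899 to 33929292) are on the plus strand of the same chromosome, B2m is on chromosome 2 (122147686 to 122153083) and Psmb10 on chromosome 8 (105935735 to 105938444). The read-outs are exonic read counts per gene.

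With saline, no member passed the test between phenotypes, and after DEX 5 of the 7 were lower in AS animals and 4 of the 7 in PS animals, while none passed the test in control animals. H2-K1, H2-D1, Tap2 and Tapbp fell in both stressed phenotypes, H2-Q6 fell in AS, and B2m and Psmb10 passed the test nowhere. Genes were called at a Benjamini-Hochberg adjusted p under 0.1 from limma on log2(normalized count + 1). The threshold and the 6-group design follow the study's methods, but the tool does not. The study itself tested with DESeq2, which is an alternative fit here. Over all 14074 genes, 2.46% were called lower after DEX in control animals, 2.62% in PS and 4.95% in AS. In either direction 6.49%, 5.36% and 8.77% of all genes were called. Fkbp5 and Tsc22d3, standard glucocorticoid receptor targets used to check the DEX labels, rose in control, PS and AS animals, with log2 differences of 2.26, 2.00 and 1.91 for Fkbp5. Of the 5 genes listed for that check, 3, 4 and 3 genes were called higher in control, PS and AS, and 1 was called lower in control and PS, Nr3c1, the receptor gene itself, at -0.50 and -0.38 (named after its values were seen).

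**Figure D1:**
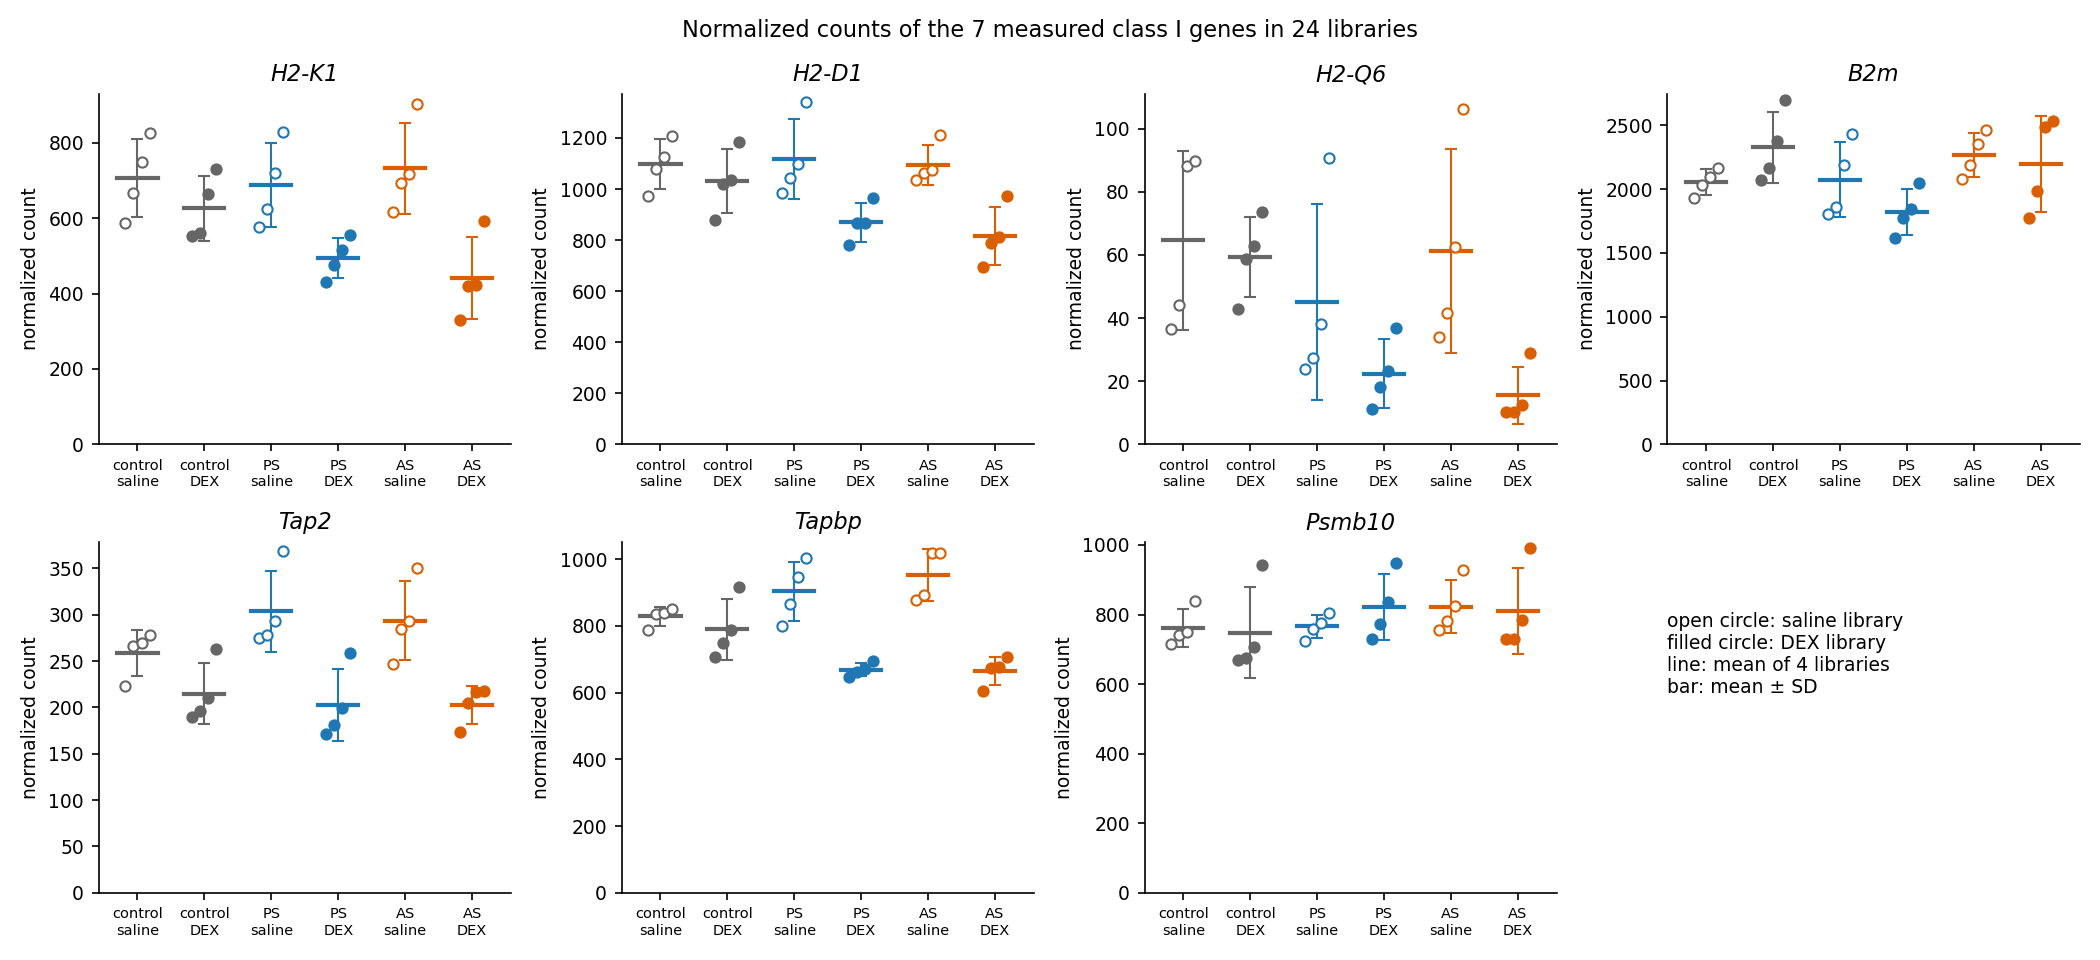
Normalized counts (vertical axes, from 0) of the 7 measured class I genes in the 24 libraries, by group. Open circles are saline and filled circles DEX libraries, the line is the mean of 4 libraries and the bar its SD. For Tapbp the 4 PS and 4 AS libraries with DEX lie between 606 and 707, below every saline library of any phenotype, whereas for B2m and Psmb10 saline and DEX overlap in each phenotype.

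H2-K1, one of the classical class I heavy chains that binds peptide for display to T cells, was at 587, 668, 750.05 and 825 normalized counts in the control saline libraries and at 552, 560.0, 665 and 730.0 in the control DEX libraries. In PS animals the saline libraries were at 577, 626, 719.9 and 830.1 and the DEX libraries at 430.0, 476, 514 and 555. In AS animals the saline libraries were at 616, 695, 717 and 903 and the DEX libraries at 331, 421, 423 and 593. The DEX values lay below every saline value in PS and in AS, and the control groups overlapped. By the fit, H2-K1 fell by 40.3% with DEX in AS (log2 difference -0.75 ± 0.15 (SE), adjusted p = 0.00341) and by 27.8% in PS (log2 difference -0.47 ± 0.15, adjusted p = 0.0977), with -0.17 in control (adjusted p = 0.679). The PS call sat close to the threshold: it was kept in 18 of 33 alternative fits and was lost, among others, without PS saline mouse 62 (adjusted p = 0.304).

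H2-D1, the other classical heavy chain of this strain, was higher per kilobase than H2-K1. Its control libraries were at 973, 1079.9, 1126 and 1209 with saline and at 878, 1021, 1033 and 1186 with DEX. The PS libraries were at 985, 1042, 1098 and 1342 with saline and at 781, 865, 866 and 965 with DEX. For AS the values were 1035, 1062, 1074 and 1211 with saline and 695, 788, 813 and 971 with DEX. As with H2-K1, every DEX library of a stressed phenotype was below its 4 saline libraries, and the control values overlapped. H2-D1 fell by 25.8% with DEX in AS (log2 difference -0.43 ± 0.11, adjusted p = 0.0146) and by 21.8% in PS (-0.35 ± 0.11, adjusted p = 0.0643), and stood at -0.10 in control (adjusted p = 0.763). Leaving out PS saline mouse 2 or 62, or PS DEX mouse 6, 34 or 52, ended the PS call, with adjusted p values up to 0.258.

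H2-Q6, a non-classical (Qa-2 family) heavy chain, had the largest log2 difference of the members and the widest spread. Control libraries were at 36.4, 44.1, 88.0 and 89.8 with saline and at 42.9, 58.8, 62.7 and 73.5 with DEX. In PS the saline libraries were at 23.9, 27.3, 38.2 and 90.8 and the DEX libraries at 11.2, 18.2, 23.3 and 37.0. In AS they were at 34.1, 41.7, 62.6 and 106 with saline and at 10.3, 10.4, 12.5 and 28.9 with DEX. The AS groups did not overlap, whereas in PS the highest DEX library lay above 2 saline libraries. H2-Q6 fell by 73.3% with DEX in AS (log2 difference -1.91 ± 0.43, adjusted p = 0.00730). The size depended on the scale, since its log2 difference was -0.99 on TMM-scaled log2(CPM + 1) and between -2.24 and -1.51 in the other alternative fits, with the call kept in all 31. The PS difference of -0.89 did not pass (adjusted p = 0.361), nor did the control difference of -0.03 (adjusted p = 0.989). With saline, the PS mean was 45.1 ± 31.1 (SD, n = 4) against 64.6 ± 28.3 in control (log2 difference -0.61, adjusted p = 0.573).

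B2m, the light chain that every class I heavy chain needs to reach the cell surface, passed the test in no phenotype. Control libraries were at 1928, 2034, 2096 and 2165 with saline and at 2069, 2167, 2379 and 2697 with DEX. In PS, saline gave 1809, 1863, 2192 and 2434 and DEX 1616, 1772, 1842 and 2050.1. In AS, saline gave 2077, 2187, 2353 and 2464 and DEX 1776, 1989, 2488 and 2535. All 3 pairs of groups overlapped, and none of the log2 differences passed, at 0.17 for control (adjusted p = 0.505), -0.18 for PS (adjusted p = 0.530) and -0.06 for AS animals (adjusted p = 0.849). The 95% interval in AS ran from -0.29 to 0.17. It overlapped the AS intervals of H2-D1 (-0.65 to -0.21) and Tap2 (-0.81 to -0.24), but not those of H2-K1, H2-Q6 and Tapbp. Differences between members were not tested.

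Tap2, the second subunit of the peptide transporter, had saline means of 259 ± 24.8 in control, 304 ± 43.7 in PS and 294 ± 42.7 in AS. The control libraries were at 223, 266, 269 and 278 with saline and at 189.5, 196, 210.3 and 262 with DEX. PS libraries were at 275, 278, 293 and 368 with saline and at 171, 181, 199 and 259 with DEX. AS libraries were at 247, 285, 293 and 349.9 with saline and at 173, 205, 216 and 218 with DEX. In both stressed phenotypes no DEX library reached a saline one. Tap2 fell by 33.6% in PS (log2 difference -0.59 ± 0.14, adjusted p = 0.0114) and by 30.5% in AS (-0.52 ± 0.14, adjusted p = 0.0209). The control difference of -0.28 did not pass (adjusted p = 0.336, 95% interval -0.56 to 0.00), and without AS saline mouse 40 the AS call was lost (adjusted p = 0.102).

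Tapbp encodes tapasin, which bridges the transporter and the empty heavy chain, and had the smallest p of the members. Control libraries were at 788, 836, 839.8 and 852 with saline and at 706, 749, 788 and 915 with DEX. The PS libraries were at 801, 865, 948 and 1003 with saline and at 647, 662, 671 and 694 with DEX. The AS libraries were at 879, 892, 1019.8 and 1020.3 with saline and at 606, 674, 676 and 707 with DEX. The 8 DEX libraries of stressed animals were below all 12 saline libraries, and only 1 control DEX library, at 706, came down to their range. Tapbp fell by 30.0% in AS (log2 difference -0.52 ± 0.08, adjusted p = 0.000224) and by 25.8% in PS (-0.43 ± 0.08, adjusted p = 0.00174), calls that held in all 33 alternative fits, with -0.08 in control (adjusted p = 0.744). With saline, the 4 AS libraries were all above the 4 control libraries, at a log2 difference of 0.20 that did not pass (adjusted p = 0.364). The share of all genes with that saline pattern was not counted, so the separation is description only.

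Psmb10, the immunoproteasome subunit that stands in for Psmb7 and the one such subunit with a row, passed the test in no comparison. Control libraries were at 714, 740.2, 749 and 839.6 with saline and at 668, 676, 707 and 942 with DEX. The PS libraries were at 724, 758, 775 and 806 with saline and at 731, 774, 837 and 948 with DEX. AS libraries were at 754, 783, 825 and 927 with saline and at 729.8, 731, 785 and 989.9 with DEX. The groups overlapped in every comparison. With DEX, control animals had a log2 difference of -0.04, PS animals 0.10 and AS animals -0.03 (adjusted p = 0.931, 0.821 and 0.927), with 95% intervals of -0.26 to 0.19, -0.13 to 0.32 and -0.25 to 0.19. The log2 ratio of Psmb10 to Psmb7 was -1.46 ± 0.10 (SD, n = 4) in control saline, -1.51 ± 0.25 in control DEX, -1.74 ± 0.06 in PS saline, -1.67 ± 0.07 in PS DEX, -1.48 ± 0.14 in AS saline and -1.61 ± 0.14 in AS DEX. These ratios were not tested.

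Over the 7 members the median log2 difference with DEX was -0.08 in control, -0.43 in PS and -0.52 in AS, against -0.01, -0.00 and 0.00 over all genes. In 4 members in PS, and in 5 in AS, all 4 DEX libraries lay below all 4 saline libraries, and in none in control. Among all genes that pattern held for 4.57% in PS, 5.02% in AS and 4.32% in control. Ordered by group mean, AS DEX or PS DEX was lowest for H2-K1, H2-D1, H2-Q6, Tap2 and Tapbp, and the other of these groups came next. The next above these was control DEX for H2-K1, H2-D1, Tap2 and Tapbp, and PS saline for H2-Q6. Between neighbouring groups in each order the ranges overlapped for all members, except that control DEX stood clear of PS DEX for Tapbp.

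The saline comparisons set the phenotypes against each other without DEX. PS and AS differ from control in defeat, in housing and in being selected by behaviour, which cannot be told apart here. In PS against control the 7 members ran from -0.61 (H2-Q6) to 0.22 (Tap2) on the log2 scale, with 0 called, against 1.51% of all genes. In AS against control they ran from -0.10 (H2-Q6) to 0.20 (Tapbp), again with 0 called, against 0.156% of all genes. AS against PS gave 0 called members and 0% of all genes, where limma left 671 genes at an unadjusted p under 0.05, edgeR called 0 and DESeq2 called 11. No alternative fit called a member in any of these 3 comparisons. For H2-K1, the saline AS minus control difference was 0.05 with a standard error of 0.15.

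**Figure D2:**
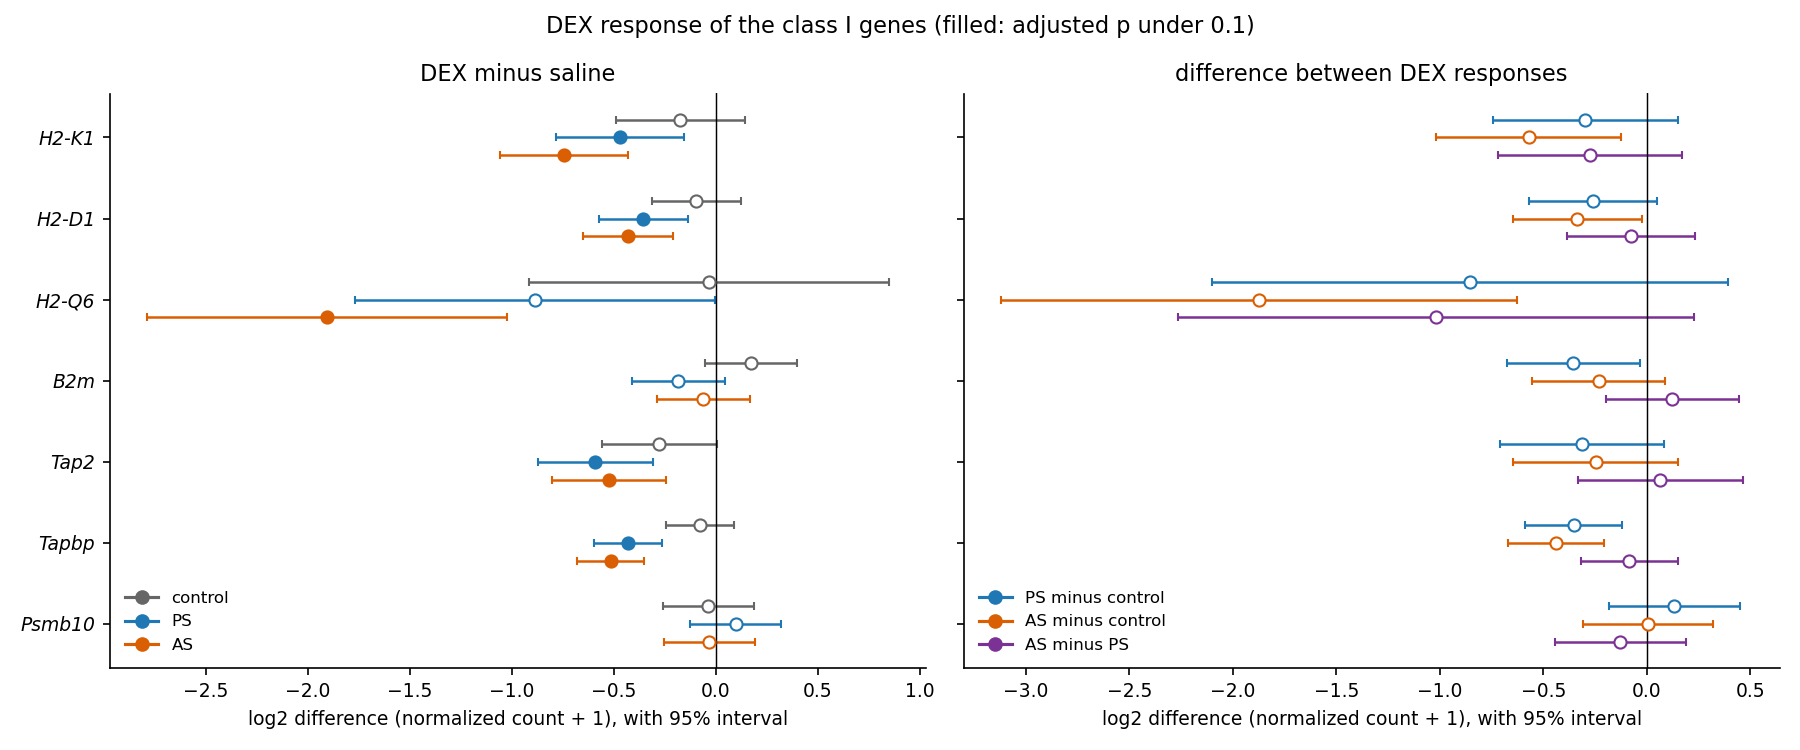
Log2 differences (horizontal axes) of the 7 members with 95% intervals, for DEX minus saline in control, PS and AS animals (left) and for the differences between those responses (right). Filled circles have an adjusted p under 0.1. In the left panel 4 PS and 5 AS points are filled and none of control, and in the right panel none is filled, although the intervals of H2-K1, H2-D1, H2-Q6 and Tapbp for AS minus control, and those of Tapbp and B2m for PS minus control, lie below 0.

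A call in stressed animals and none in control does not by itself show that the responses differ, so the differences between responses were tested. With limma, no member passed in any of the 3. Between AS and control they were -0.44 ± 0.11 for Tapbp (adjusted p = 0.110), -0.57 ± 0.22 for H2-K1 (adjusted p = 0.228), -1.87 ± 0.60 for H2-Q6 (adjusted p = 0.169) and -0.34 ± 0.15 for H2-D1 (adjusted p = 0.323), against 0.348% of all genes called. Their 95% intervals, unadjusted for the number of genes, ran from -0.67 to -0.21 for Tapbp, from -1.02 to -0.13 for H2-K1, from -3.12 to -0.63 for H2-Q6 and from -0.65 to -0.03 for H2-D1. Between PS and control the smallest p values were those of Tapbp at -0.35 ± 0.11 (adjusted p = 0.367) and B2m at -0.36 ± 0.16 (adjusted p = 0.445), with unadjusted intervals of -0.59 to -0.12 and -0.68 to -0.04. In that comparison 0% of all genes passed with limma, with 1404 at an unadjusted p under 0.05, 0 called by edgeR and 23 by DESeq2. Between AS and PS the members ran from -1.02 (H2-Q6) to 0.12 (B2m), each with an adjusted p of 0.9997, and 0% of all genes passed, with 344 at an unadjusted p under 0.05 and 0 called by edgeR or DESeq2. The comparison of AS with control depended on the tool and on single libraries. DESeq2, the tool of the study's own tests, called Tapbp and H2-Q6 (adjusted p = 0.0247 and 0.0875), and edgeR called Tapbp (adjusted p = 0.0923). Without AS DEX mouse 60, limma called H2-K1, H2-Q6 and Tapbp (adjusted p = 0.0954, 0.0925 and 0.0925). The 3 DEX comparisons have separate saline controls, whereas the AS and PS responses are both set against the same control animals.

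Among other class I and related heavy chains, 8 of 21 listed genes had a row. With DEX, 0 were called in control, 2 were lower in PS and 3 in AS, with list medians of 0.11, -0.19 and -0.22. H2-Q4 fell by 0.80 in PS (adjusted p = 0.0491) and by 1.28 in AS (adjusted p = 0.000918) on the log2 scale. It is a Q-region gene related to the measured heavy chains, and the same doubt over shared reads applies to it. H2-T24 fell by 0.82 in PS (adjusted p = 0.0872) and by 1.004 in AS (adjusted p = 0.0207). Fcgrt, the neonatal Fc receptor that also pairs with beta-2-microglobulin, fell by 0.60 in AS (adjusted p = 0.00702). The remaining 5 genes of the list, all called nowhere, lay between -0.28 and 0.03 in AS.

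The other 11 genes of peptide loading and transport, such as the chaperones calreticulin and calnexin, all had rows. None was called with DEX in control or AS, and 2 were lower in PS, against 2.62% of all genes called lower there. Erap1, the aminopeptidase that trims peptides in the endoplasmic reticulum, fell by 0.47 (adjusted p = 0.0212), and Tapbpl, a tapasin-related peptide editor, fell by 0.46 (adjusted p = 0.0349). Their list medians were -0.03, -0.08 and -0.02 in control, PS and AS.

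None of the 14 constitutive proteasome core subunits was called in any of the 9 comparisons, and their DEX medians were -0.04, 0.00 and 0.05. Psmb5, Psmb6 and Psmb7, the subunits that the inducible ones replace, had log2 differences with DEX of 0.07, -0.02 and 0.10 in AS. Among the 7 activator and assembly genes, Psme4 (the PA200 activator) rose with DEX in PS by 0.32 (adjusted p = 0.0891) and in AS by 0.37 (adjusted p = 0.0306). Psme1, a subunit of the interferon-inducible PA28 activator, fell in AS by 0.24 (adjusted p = 0.0865). In either direction, DEX gave calls for 5.36% of all genes in PS and 8.77% in AS. Pomp, the proteasome maturation protein, was higher in PS than in control with saline by 0.35 (adjusted p = 0.0858), where 1.51% of all genes were called.

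Of 24 listed regulators of class I transcription, 22 had a row, without Nlrc5 and Irf8. With DEX, 0 were called in control, 1 was lower in PS and 5 were lower in AS, with none higher. The shares of all genes called lower were 2.46%, 2.62% and 4.95%, and the single PS call is near its share. Between PS and control with saline, 1 was called higher and 1 lower, against 1.51% of all genes called. These were Nfyb at 0.21 (adjusted p = 0.0692) and Rfxank at -0.29 (adjusted p = 0.0947), both named after their values were seen. Irf1, an interferon-induced activator of class I promoters, was at 211, 220.4, 245 and 261 normalized counts in AS saline and at 152, 165, 179.6 and 195 in AS DEX, without overlap. In saline libraries the 4 PS values (219 to 255) and the 4 AS values lay above the 4 control values (161 to 209), without passing (adjusted p = 0.198 and 0.326). How many of all genes show such a saline separation was not counted. With DEX it fell by 26.1% in AS (log2 difference -0.44 ± 0.11, adjusted p = 0.0228), and stood at -0.26 in PS (adjusted p = 0.310) and 0.03 in control (adjusted p = 0.955). Nfya, a subunit of the factor that binds CCAAT boxes, fell by 0.36 in PS and 0.32 in AS (adjusted p = 0.0169 and 0.0322), and Tyk2, a kinase of the interferon receptors, fell by 0.35 in AS (adjusted p = 0.0371).

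Interferon response genes had rows for 18 of 34 listed. With DEX, 9 were lower in PS, 5 in AS and 1 in control, against 2.62%, 4.95% and 2.46% of all genes called lower. None was higher, and the list medians were -0.58, -0.43 and -0.15. Gbp2, an interferon-induced guanylate-binding protein, fell in PS and in AS, with log2 differences of -1.85 and -1.497 (adjusted p = 0.00137 and 0.00764). Gbp3 of the same family fell by 1.22 and 1.15 (adjusted p = 0.000566 and 0.000918), and Isg15, a ubiquitin-like interferon product, fell by 1.23 in PS (adjusted p = 0.0545). The one gene called in control was Ifit3b, named after its values were seen, which fell by 0.73 there (adjusted p = 0.000727).

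**Figure D3:**
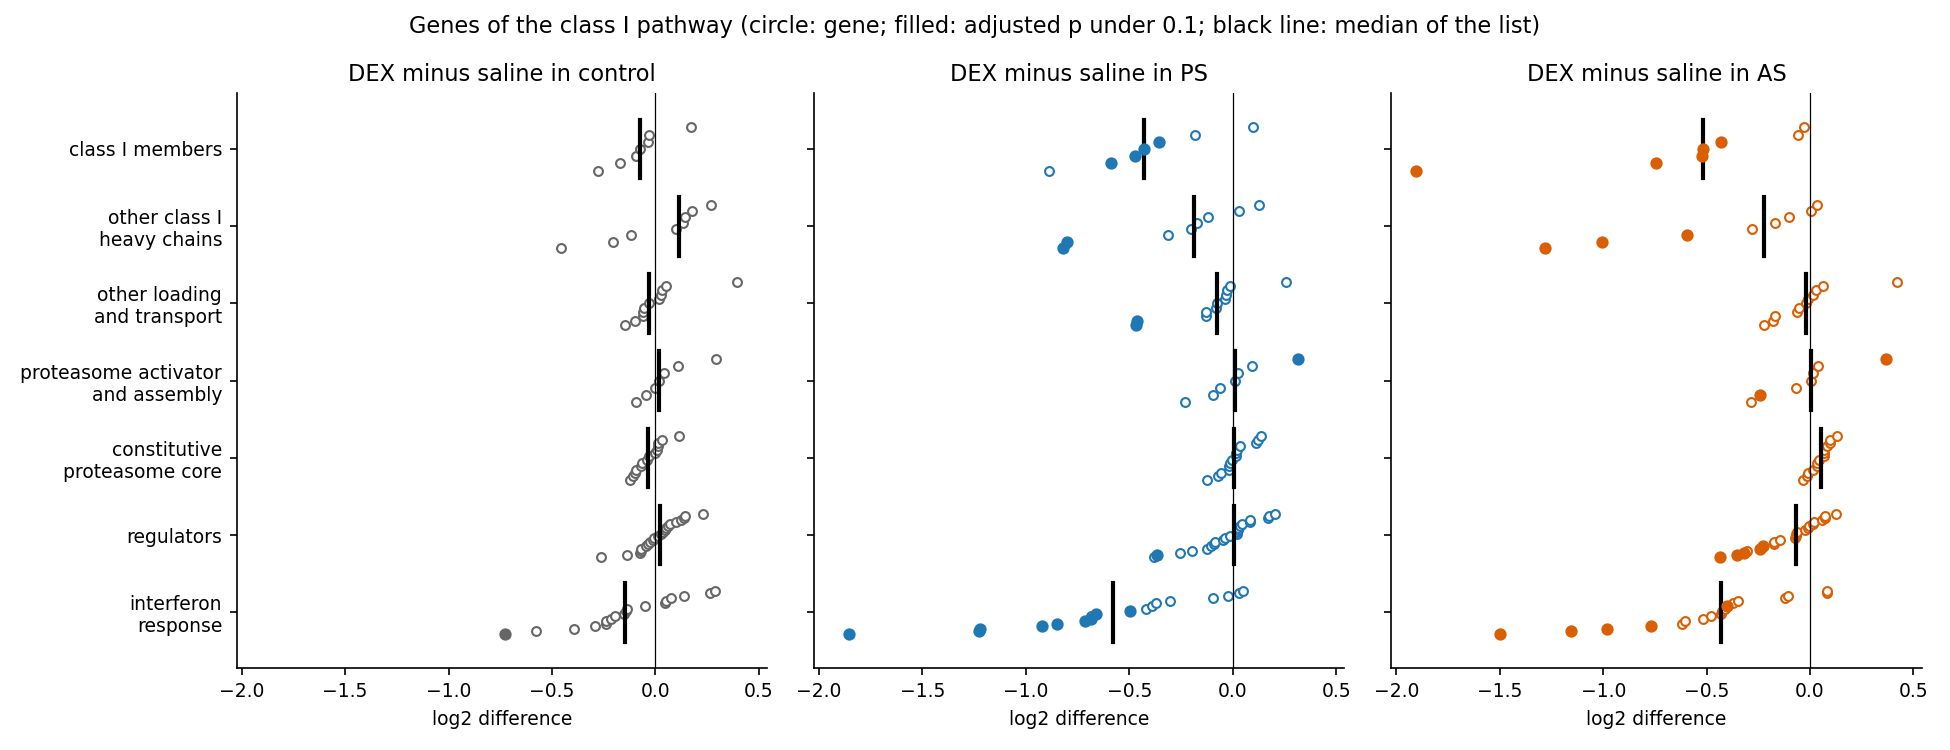
Log2 differences, DEX minus saline (horizontal axes, the same scale in each panel), of every measured gene in 7 lists of the class I pathway, in control, PS and AS animals. Each circle is a gene, filled where the adjusted p is under 0.1, and the black line is the median of the list. The constitutive proteasome core lies within 0.14 of 0 in all panels, whereas the members and the interferon response genes reach medians of -0.43 and -0.58 in PS.

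Some cell type markers were also called with DEX, in patterns that differed between cell types and phenotypes. For scale, 6.49% of all genes were called in either direction in control, 5.36% in PS and 8.77% in AS. The shares called lower were 2.46%, 2.62% and 4.95%. Endothelial markers (15 of 15 measured, none at 0) summed to 10042 to 16184 normalized counts in AS saline and 8304 to 11932 in AS DEX, with 7 of 15 called lower, while in control they were 11347 to 14932 with saline and 14017 to 20010.3 with DEX. In PS the same sums were 10288 to 13964 with saline and 7868 to 15387 with DEX, overlapping, with 2 of 15 called lower and 1 higher. Mural markers (10 of 10) were 5260.2 to 9313 in AS saline and 4049 to 5020.5 in AS DEX, without overlap and with 5 called lower, and 0 were called in PS. Microglia markers (15 of 15) were 15876 to 16751 and 12557 to 14951 in AS, and 14509 to 16072 and 12671 to 14228 in PS, saline against DEX, without overlap in either and with 6 called lower in each. Control microglia sums of 13710.2 to 15253 with saline and 12970 to 17179 with DEX overlapped, with 3 markers lower and 1 higher.

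Markers of blood (5 of 5) were 2001 to 2746 in PS saline and 1123 to 1719 in PS DEX, without overlap. They overlapped in AS, at 1155 to 3140.0 with saline and 1168 to 3599 with DEX, and in control, at 1575 to 2687 with saline and 1625 to 4386 with DEX, and 0 were called in any of the 3. Leptomeningeal markers (7 of 8) had median sums of 4472 and 2672 in PS, 4153 and 2717 in AS, and 3031 and 4074 in control, saline against DEX, with 0 called in PS and AS and 1 called higher in control. T and NK cell markers had 1 of 12 rows, B cell markers 2 of 6 and border macrophage and monocyte markers 3 of 10, with 1 border macrophage marker called higher in control, 1 higher and 1 lower in PS, and 1 lower in AS. Astrocyte markers (10 of 10) had median log2 differences with DEX of 0.15 in control, -0.09 in PS and -0.09 in AS, with 3 called higher in control, 3 higher and 1 lower in PS, and 2 higher and 2 lower in AS. Oligodendrocyte markers (10 of 10) had medians of -0.34, 0.12 and 0.32, with 4 called lower in control, 0 called in PS and 2 called higher in AS. Pyramidal neuron markers had medians of -0.05, 0.02 and 0.03, with 1 lower in control and 2 higher in AS. In bulk tissue, fewer cells of a type and less RNA per cell cannot be told apart, and the part of endothelial, mural, microglial, blood and leptomeningeal RNA in the class I values was not tested. AS DEX mouse 60 had the highest H2-K1, H2-D1, H2-Q6, B2m and Psmb10 of its group and also the highest endothelial (11932), mural (5020.5), microglia (14951), blood (3599), oligodendrocyte (47788), T and NK cell (579) and B cell (691) sums, and the lowest leptomeningeal (2539), astrocyte (114589) and pyramidal neuron (175129) sums.

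**Figure D4:**
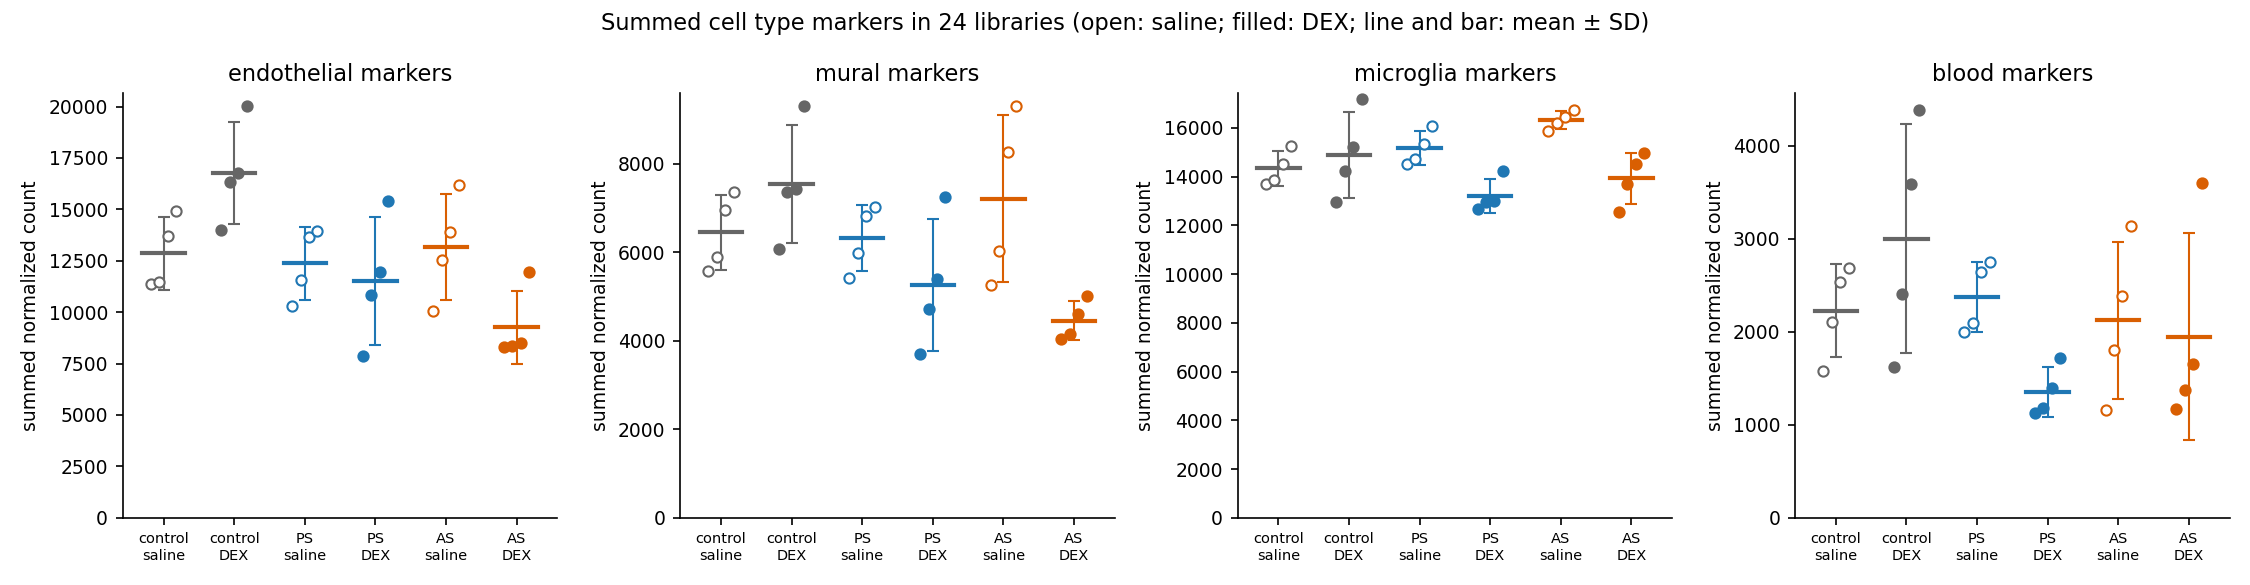
Summed normalized counts (vertical axes, from 0) of endothelial, mural, microglia and blood markers in the 24 libraries by group, with open circles for saline, filled circles for DEX, and lines and bars for the mean ± SD of 4 libraries. Mural and microglia sums of AS DEX lie below those of AS saline, the PS endothelial sums overlap, and the control endothelial sums reach 20010.3 with DEX.

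The genes whose log2 values over the 24 libraries were most like the members' mean, among 12012 genes whose mean reached 100 normalized counts, were H2-Q4 (Pearson r = 0.947), Vtn (0.936), Fcgrt (0.904), Irgm2 (0.895), Bcam (0.885), Pltp (0.881), Serpinh1 (0.878) and Tcirg1 (0.877). The libraries share groups and size factors, so these values are a description, and for H2-Q4 they may include reads shared with the 3 heavy chain members. H2-Q4 and Fcgrt are in the list of other heavy chains, Irgm2 in the interferon list and Vtn in the mural marker list. The mean of the members' centred log2 values, the measure they were matched to, ran from -0.59 to -0.02 in AS DEX, from -0.41 to -0.04 in PS DEX, from -0.11 to 0.31 in control DEX and from -0.07 to 0.50 over the 12 saline libraries. The values were centred but not scaled. H2-Q6, the thinnest row and the one with the widest spread, therefore weighs most in this mean and in the matches to it.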

How the data were processed

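PFC libraries were strand-specific, made from poly(A) RNA and sequenced in pairs. Per the labels and the study's methods, the authors trimmed reads with fastp 0.20.1 and aligned them to mm10 (GRCm38) with HISAT2 2.2.1. They assigned the reads to genes of GENCODE vM22 by featureCounts (Subread 2.0). Both the normalization and the study's own tests used DESeq2 1.36.0. The deposited signal is the read count per gene divided by one size factor per library, and fold changes and p-values that the authors deposited beside it were not used. Every value was a whole multiple of the value of 1 read within 0.01 read (100% of values), so whole reads were recovered for depth and count models. The counting is stranded, but reads shared by related heavy chain genes cannot be reassigned.

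Differences were tested with limma 3.58.1 in R 4.3.3 (trend) on log2(normalized count + 1), 24 libraries, 6 group means and 9 comparisons, with Benjamini-Hochberg adjustment over 14074 genes, called at adjusted p under 0.1. The log scale understates changes of low genes. Intervals are 95%. Each replicate is a separate mouse, and replicate pairs of a group differed beyond sampling noise (chi-square per gene 5.74 to 81.8). Coordinates and exon lengths are from GENCODE M21 of the same build. Members, lists and motifs were chosen with earlier results of these data known. Named genes were the members, Irf1, Nlrc5 and Psmb5 to Psmb7, up to 3 called genes per other list by size, Fkbp5 and Tsc22d3, and the 8 genes most like the members' mean. One further gene of this rule is not reported here. Alternatives were a pseudocount of 8, filters at a mean of 100 or at 10 reads per library, quantile normalization, TMM scaling, only the groups compared, a library size term, each library left out, DESeq2 1.42.0, and the quasi-likelihood test of edgeR 4.0.16. On simulated counts for DEX in AS (14074 genes, 100 changed at each size), limma recovered 100% at a log2 change of 1 and 78% at 0.5, with 13 false calls. The changed genes were drawn only from better-expressed ones, which leaves out rows as thin as H2-Q6. Far fewer genes were changed than the 1234 called in the data, so these rates need not carry over.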

Additional observations from a re-analysis of the deposited data

Results flagged for a closer look

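In 42 sets of 4 libraries (7 members in 6 groups), 2 held a library farther from the others than Dixon's 95% limit allows, and chance alone gives about 1 in 20. H2-Q6 in AS DEX mouse 60 was at 28.9 normalized counts, against 10.3 for the lowest of its group, with the gap to its nearest neighbour 0.884 of the range. Without this mouse, limma called H2-K1, H2-Q6 and Tapbp in the AS minus control difference of DEX responses. Psmb10 in control DEX mouse 101 was at 942, against 668 for the lowest, with a gap of 0.860 of the range, and that mouse was also the highest of its group for B2m, H2-D1, H2-K1, Tap2 and Tapbp.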

How the results depend on the processing

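The number of members called with DEX in PS was 4 under the 9 alternatives that kept all libraries and 2 to 4 with 1 library left out (2 without PS saline mouse 2 or 62, or PS DEX mouse 6, 34 or 52). In AS it was 4 to 5 under both kinds of alternative. In the AS minus control difference of responses, edgeR called 1 member, DESeq2 called 2, and leaving out 1 library gave 0 to 3, with 3 without AS DEX mouse 60, 2 without control DEX mouse 112 or AS saline mouse 44, and 1 without AS saline mouse 14 or PS DEX mouse 34 or 56. PS mice do not enter that difference. Without PS DEX mouse 34 or 56 the Tapbp value stayed at -0.44, and its limma adjusted p moved from 0.110 to 0.0904 and 0.0989. That shift comes through the spread shared by all groups and the adjustment over genes. For the other libraries the cause was not tested. In the other 6 comparisons 0 members were called throughout. Of 2061 refits of a member in a comparison, 2027 kept their side of the threshold, 21 lost a call, 13 gained one, and none changed sign while called, although 52 uncalled differences did.

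Over all genes the counts moved further: 57 to 348 for PS and 12 to 49 for AS against control with saline, 509 to 871 for DEX in PS, 673 to 1985 for DEX in AS and 4 to 686 for the AS minus control difference with 1 library left out, and 134 to 523, 5 to 99, 703 to 903, 753 to 1614 and 1 to 439 under the other alternatives. With the library size term, 1038 genes were called for DEX in AS, against 1234 in the main fit. For the AS minus control difference the counts were 7 and 49. The filter at 10 reads per library removed H2-Q6, and so did the filter at a mean of 100. The Psmb10 to Psmb7 ratio was also computed with a pseudocount of 8 and without each mouse, choices made after seeing the data that by construction can hardly move it and so say nothing of its stability. The log2 difference of H2-Q6 with DEX in AS was -0.99 on TMM-scaled log2(CPM + 1), where the added 1 shrinks differences of low rows. Mouse numbers do not recur between groups. No paired analysis was possible because the groups share no replicate number. Depth limits H2-Q6 above all, at 9 reads in its lowest library, and intervals cover the spread between 4 mice.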
